A study of Mus musculus with 2 samples.

Results

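Hybrid myonuclei, in which no single adult myosin heavy chain gene dominated, were described in single-nucleus RNA-seq of mouse skeletal muscle. A nucleus was taken as hybrid when it held at least 500 UMIs (unique molecular identifiers, 1 per captured transcript) with at most 10% of them mitochondrial, at least 3 UMIs summed over Myh7, Myh2, Myh1 and Myh4, and none of these 4 genes at 60% or more of that sum. It also had to hold fewer than 3 UMIs summed over 8 genes of non-muscle cells (Pdgfra, Dcn, Col1a1, Col3a1, Pecam1, Flt1, Ptprb and Ptprc). There were 467 hybrid nuclei among 7741 nuclei that passed the depth and mitochondrial limits, out of 7857 deposited barcodes. The other 5326 nuclei with a myosin call had 1 gene at 60% or more and are called single-myosin nuclei, or Myh7-, Myh2-, Myh1- and Myh4-dominant by that gene. The hybrid nuclei were chosen by their myosin UMIs, so their myosin values are a description and were not tested.

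The nuclei came from the gastrocnemius-plantaris muscles of B6C3F1 mice carrying floxed alleles of Net39 (gene symbol Plpp7), which encodes a protein of the muscle nuclear envelope. The cKO library came from HSACreERT2;Net39 fl/fl mice, in which the human skeletal actin promoter drives a tamoxifen-activated Cre in muscle fibres and loxP sites flank the first exon. The Ctrl library came from Net39 fl/fl mice without Cre. Both groups received tamoxifen and were 5 months old, 3 months after it, and the protocol states that 3 muscles were pooled per library. The sample titles name 1 mouse each, so the number of animals per library is uncertain. With 1 library per group no difference between cKO and Ctrl has a replicate check. The intervals below are 95% intervals for counting error only, and nuclei of 1 library are not replicates. They are Clopper-Pearson for shares, exact Poisson for levels and conditional binomial for ratios between groups of nuclei. Ratios against the mixture of dominant classes, described below, instead divide the exact Poisson interval of the hybrid level by a fixed mixture level. These leave out the counting error of the mixture and so are too narrow. The interval of a depth ratio likewise takes the single-myosin median as fixed.

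Skeletal muscle fibres are multinucleate cells, and each is classified by the myosin heavy chain it makes. Myh7 encodes the slow type I chain, Myh2 the fast oxidative type IIa chain, Myh1 the fast IIx chain and Myh4 the fastest, glycolytic IIb chain. Fibres that change type generally pass through neighbouring states in the order I, IIa, IIx, IIb, and fibres with 2 neighbouring chains are called hybrid fibres. A nucleus caught in such a fibre could hold transcripts of both genes, and so could a nucleus that picked up free RNA or a droplet that held more than 1 nucleus.

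Myh2, Myh1 and Myh4 lie side by side on the plus strand of mouse chromosome 11 (GRCm38, GENCODE annotation): Myh2 at chr11:67171027-67197517, Myh1 at chr11:67200052-67224575 and Myh4 at chr11:67238029-67260446. Myh7 lies apart on the minus strand of chromosome 14, at chr14:54970684-54994626. The 200 bases that end shortly before each RefSeq start site are shown because these are the promoters of the genes that define the hybrid nuclei (RefSeq, GRCm38.p6, 5′ to 3′ on the gene's strand). Capitals mark a run of 20 bases that the 3 fast genes share. The windows are chr11:67170777-67170976 for Myh2, chr11:67199852-67200051 for Myh1, chr11:67237562-67237761 for Myh4 and chr14:54994677-54994876 for Myh7. They are placed by the RefSeq start sites 67171027 for Myh2, 67200102 for Myh1, 67237812 for Myh4 and 54994626 for Myh7, and those of Myh1 and Myh4 differ from the GENCODE gene starts above. Myh7 has another RefSeq start site, at 54994549, whose window is not shown.
Myh2: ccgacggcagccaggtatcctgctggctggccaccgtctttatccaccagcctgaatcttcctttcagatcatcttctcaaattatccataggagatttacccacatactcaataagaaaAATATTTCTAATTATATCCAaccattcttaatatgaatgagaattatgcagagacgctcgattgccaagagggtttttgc
Myh1: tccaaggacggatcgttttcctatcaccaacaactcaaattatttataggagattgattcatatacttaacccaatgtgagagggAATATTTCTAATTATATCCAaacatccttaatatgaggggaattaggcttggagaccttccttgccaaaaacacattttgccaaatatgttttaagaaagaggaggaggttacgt
Myh4: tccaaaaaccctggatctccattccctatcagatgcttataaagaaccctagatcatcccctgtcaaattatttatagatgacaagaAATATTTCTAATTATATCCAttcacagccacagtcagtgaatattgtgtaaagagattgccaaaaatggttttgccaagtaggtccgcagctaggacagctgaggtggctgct
Myh7: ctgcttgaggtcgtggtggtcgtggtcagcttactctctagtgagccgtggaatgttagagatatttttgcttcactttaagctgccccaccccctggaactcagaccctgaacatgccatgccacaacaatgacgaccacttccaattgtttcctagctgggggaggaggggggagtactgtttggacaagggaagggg
The run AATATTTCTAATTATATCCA began at -130 from the RefSeq start site of Myh2, -165 of Myh1 and -163 of Myh4. It was found in 3 of the 32851 promoters in the table (0.00913%), all of them these genes. The longest run that Myh7 shared with any of the 3 was 9 bases. TATAAA on the gene's strand stood at -32 in Myh1 and -31 in Myh4, downstream of the bases shown. Myh4 held 2 in all, with the other inside the bases shown, and Myh2 held 0. Of all promoters, 12.4% held TATAAA on either strand within 250 bases before the start. These matches describe the letters and were not tied to any measurement here.

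The Ctrl library had 3863 barcodes and 10410316 UMIs, and the cKO library 3994 barcodes and 8446070 UMIs, with median depths of 2106 and 1662.5 UMIs per barcode. The libraries shared 5 barcodes, of which 1 was a hybrid nucleus in either library. A doublet caller (Scrublet) marked 0 nuclei in each library and so gave no usable doublet calls. The nuclei with the highest 8% of its scores were therefore tracked instead. Levels are given in CPM, a gene's UMIs per 1000000 UMIs of all genes in the same nuclei. The 8 muscle fibre markers, Ttn, Neb and Ckm among them, summed to 75998 CPM in Ctrl and 63069 in cKO hybrid nuclei. They summed to 70242 and 67006 CPM in single-myosin nuclei, and to 43392 and 34504 in the nuclei set aside as non-fibre. Fibro-adipogenic progenitor markers summed to 92.1 and 72.8 CPM in hybrid nuclei, against 71.5 and 43.1 in single-myosin nuclei and 2800 and 3019 in the nuclei set aside as non-fibre, and endothelial markers to 25.6 and 36.4 CPM in hybrid nuclei. The rule itself limited several of these genes. Adipocyte markers were at 0 in the hybrid nuclei of both libraries. Plpp7 was counted at 29 UMIs (49.4 CPM) in hybrid nuclei of Ctrl and 28 (30.9 CPM) in those of cKO, against 49.9 and 44.8 CPM in single-myosin nuclei. These UMIs may come from outside the deleted exon, so they do not check the deletion.

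Hybrid nuclei were a minority of the nuclei with a myosin call in both libraries. They were 172 of 2816 in Ctrl (6.11%, 5.25 to 7.06) and 295 of 2977 in cKO (9.91%, 8.86 to 11.0), a difference of 3.80 percentage points (2.39 to 5.22). The size of the difference moved with depth. Thinning every nucleus to 1000 UMIs, with 258 shallower Ctrl and 579 shallower cKO nuclei dropped, gave 4.55% (79 of 1736) and 7.04% (143 of 2032), a difference of 2.49 points (0.957 to 4.01). Thinning to 500 UMIs gave 5.85% (38 of 650) and 4.75% (51 of 1073), a difference of -1.09 points whose interval spans 0 (-3.50 to 1.12). As a share of all thinned nuclei that was 1.09% in Ctrl and 1.34% in cKO, the opposite direction. Drawing 10 myosin UMIs from each nucleus that had them gave 5.24% (50 of 954) and 9.22% (94 of 1019). With all their UMIs the same nuclei gave 9.85% (8.04 to 11.9) and 11.7% (9.77 to 13.8). That was a difference of 1.82 points, and the 2 intervals overlap.

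The hybrid pattern was also met in the nuclei set aside as non-fibre. They held the 8 fibre markers at 43392 CPM in Ctrl and 34504 in cKO, against 70242 and 67006 in single-myosin nuclei. Whether they include fibre nuclei or droplets with more than 1 nucleus was not tested, so they are not taken as free of myosin. Among nuclei with at least 3 UMIs of the 8 non-muscle genes, 25 of 331 in Ctrl (7.55%, 4.95 to 10.9) and 5 of 92 in cKO (5.43%, 1.79 to 12.2) met the myosin part of the rule, at median depths of 1951 and 1851.5 UMIs. The corresponding shares of the nuclei below that limit were 4.91% (172 of 3502) and 7.73% (295 of 3816), at median depths of 2123.5 and 1664.5 UMIs. In Ctrl the hybrid share was below that of the non-fibre nuclei. In cKO it was higher, but its interval (6.90 to 8.62) lay within the wide interval of the non-fibre share, which rests on 5 nuclei. Of the nuclei with at least 3 myosin UMIs, the pattern was held by 18.8% of non-fibre (25 of 133) and 6.11% of other nuclei in Ctrl, and by 16.1% (5 of 31) and 9.91% in cKO. No hybrid share is therefore read as a frequency of hybrid fibres, and how much of it free RNA or doublets give was not tested. The 4 myosins summed to 1903 and 1663 CPM over all non-fibre nuclei, and nothing is read from the higher 3732 and 3664 CPM of hybrid nuclei, which the rule requires to hold myosin UMIs.

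Hybrid nuclei were deeper than single-myosin nuclei. Their median was 2729.5 UMIs (2453 to 3090) against 2342 in Ctrl and 2507 (2259 to 2898) against 1779.5 in cKO, ratios of 1.17 (1.05 to 1.32) and 1.41 (1.27 to 1.63). They held a median of 1103.5 and 994 genes, against 972 and 763. Mitochondrial transcripts took a median of 0.289% and 0.386% of UMIs, against 0.206% and 0.261%. Malat1, a nuclear long non-coding RNA, took 27.0% and 32.3%, against 26.3% and 30.4%. The highest 8% of doublet scores held 46 of the 172 Ctrl hybrid nuclei (26.7%) and 70 of the 295 cKO hybrid nuclei (23.7%), against 6.77% and 7.72% of single-myosin nuclei. The part of doublets in the hybrid pattern was not tested.

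The chance of seeing a hybrid also followed the number of myosin UMIs. With exactly 3 UMIs a hybrid needs 1 of each of 3 genes, and 0% of Ctrl and 2.24% of cKO nuclei qualified. With 4 UMIs a 2-to-2 split suffices, and 5.76% and 12.8% did. With 5 UMIs the shares were 1.28% and 2.03%. With 6 to 9 UMIs they were 6.05% and 12.3%, and with 10 to 19 they were 8.61% and 9.90%. At 20 or more UMIs the hybrid share was highest, 14.6% (29 of 199) in Ctrl and 17.7% (41 of 231) in cKO.

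**Figure D1:**
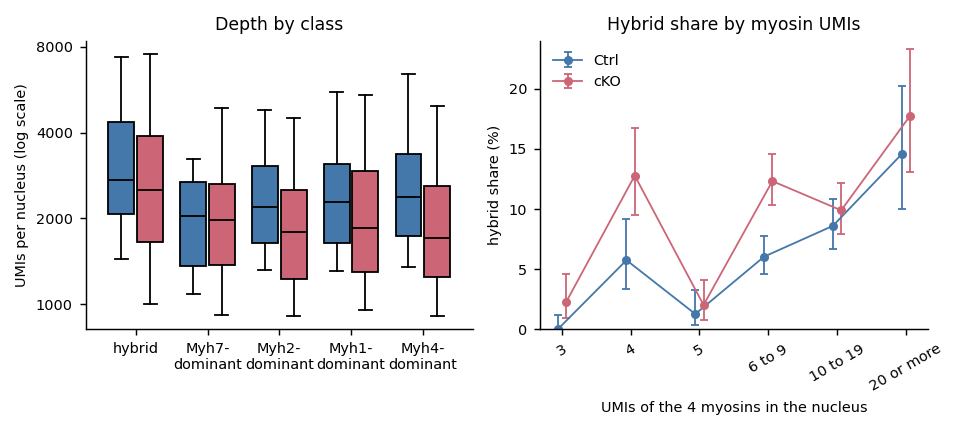
Left, UMIs per nucleus on a log scale for hybrid nuclei and the 4 single-myosin classes in Ctrl (blue) and cKO (red), with median, quartile box and whiskers at the 5th and 95th percentiles. Right, the share of nuclei called hybrid by their number of myosin UMIs, with 95% Clopper-Pearson bars: the shares dip at 5 UMIs and reach 14.6% and 17.7% at 20 or more.

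Within a hybrid nucleus the leading myosin held a median of 52.0% of the myosin UMIs in Ctrl (33.3% to 59.3%) and 50% in cKO (25% to 59.3%). Exactly 50% was held in 50 Ctrl and 115 cKO nuclei. Just inside the limit, 59 Ctrl and 68 cKO hybrid nuclei had a leading share between 55% and 60%. Just outside it, 92 and 122 single-myosin nuclei lay between 60% and 65%, so nuclei near the limit were not set apart from their neighbours. By contrast 69.5% of Ctrl and 62.5% of cKO single-myosin nuclei held UMIs of 1 myosin alone. The hybrid nuclei had a median of 11 and 9 myosin UMIs, and the second myosin a median of 4 and 3. The second myosin rested on a single UMI in 1 Ctrl and 26 cKO nuclei. At least 3 myosins with 2 or more UMIs each were seen in 43 Ctrl (25%) and 82 cKO (27.8%) hybrid nuclei. All 4 myosins had at least 1 UMI in 1 Ctrl and 24 cKO nuclei.

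Summed over the hybrid nuclei, Myh4 and Myh1 led in both libraries. Myh4 gave 832 UMIs (38.0%, 1419 CPM) in Ctrl and 1151 (34.6%, 1270 CPM) in cKO. Myh1 gave 811 (37.0%, 1383 CPM) and 1012 (30.5%, 1116 CPM). Myh2 gave 503 (23.0%, 858 CPM) and 791 (23.8%, 872 CPM). Slow Myh7 differed between the libraries, with 43 UMIs (1.96%, 73.3 CPM) in Ctrl and 368 (11.1%, 406 CPM) in cKO. Dominant nuclei of that gene, 20 in Ctrl and 301 in cKO, differed in the same direction. Myh7 was also higher in cKO in nuclei not led by it. In Myh4-dominant nuclei it stood at 7.55 CPM in Ctrl and 75.03 in cKO. In nuclei with fewer than 3 myosin UMIs it stood at 11.6 and 141 CPM, and in those set aside as non-fibre at 18.2 and 277. The difference was therefore not particular to hybrid nuclei, and its source was not tested. Myh1, Myh2 and Myh4 are near-identical copies in much of their coding sequence, so how reads were divided between them is uncertain.

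**Figure D2:**
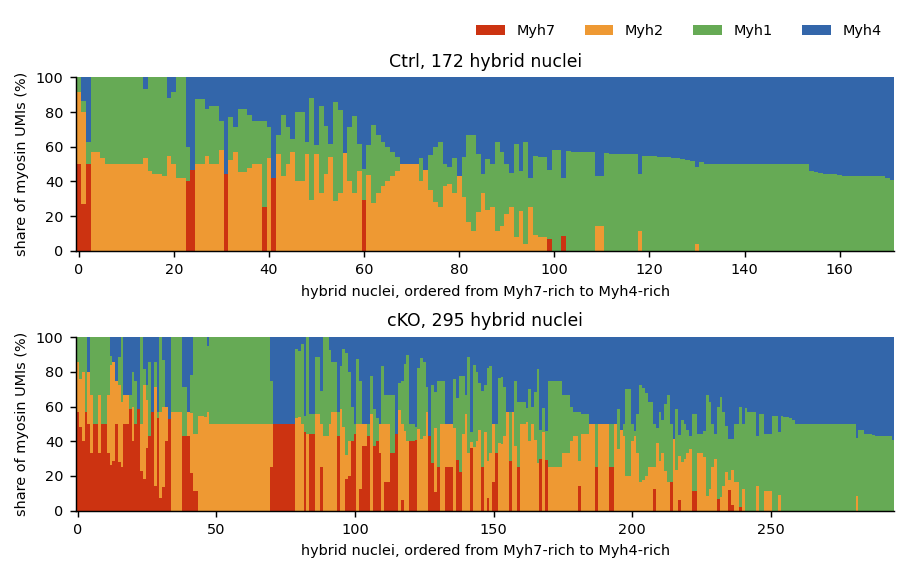
Each vertical bar is 1 hybrid nucleus, coloured by the share of its myosin UMIs from Myh7, Myh2, Myh1 and Myh4 (y axis, percent) and ordered from Myh7-rich to Myh4-rich, for the 172 Ctrl (top) and 295 cKO (bottom) hybrid nuclei. The many bars split at 50% are nuclei with equal counts of their leading genes, and Myh7 (red) is at 1.96% of all myosin UMIs in Ctrl and 11.1% in cKO.

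In Ctrl most hybrid nuclei paired myosins that neighbour each other in the fibre type order, while in cKO 53.2% did (47.3 to 59.0). The pair Myh1 and Myh4 led in 87 Ctrl hybrid nuclei (50.6%, 42.9 to 58.3) and 83 cKO hybrid nuclei (28.1%, 23.1 to 33.6), a difference of -22.4 points (-31.7 to -13.0). In one Ctrl nucleus of this kind with 7018 UMIs, Myh1 had 19 and Myh4 had 18, and in one of 8614 UMIs from cKO, Myh4 had 25, Myh1 had 13 and Myh2 had 11. Over all nuclei with this pair the 2 genes were level, with 517 UMIs each in Ctrl and 451 and 453 in cKO, a balance that the 60% limit imposes in part.

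The pair Myh2 and Myh1 led in 38 Ctrl (22.1%) and 67 cKO (22.7%) hybrid nuclei, a difference of 0.619 points (-7.74 to 8.54). A cKO nucleus of 7557 UMIs held 20 of Myh2, 19 of Myh1 and 12 of Myh4. With Myh7 and Myh2 included, the neighbouring pairs made up 127 Ctrl hybrid nuclei (73.8%) and 157 cKO hybrid nuclei (53.2%).

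Pairs that skip a type were seen too. Myh2 and Myh4 led without Myh1 among the first 2 in 31 Ctrl (18.0%) and 47 cKO (15.9%) hybrid nuclei, a difference of -2.09 points (-9.78 to 5.09). A Ctrl nucleus of 9287 UMIs had 12 of Myh2 and 16 of Myh4 with 3 of Myh1, and a cKO nucleus of 8404 UMIs had 16 and 20 with 1. Myh7 and Myh4, the ends of the order, led in 6 Ctrl (3.49%) and 38 cKO (12.9%) hybrid nuclei, a difference of 9.39 points (4.05 to 14.3). A cKO nucleus of 10036 UMIs held 12 of Myh7 and 18 of Myh4 but only 1 of Myh2 and 2 of Myh1. Myh7 with Myh1 led in 0 Ctrl and 7 cKO nuclei, and Myh7 with Myh2 in 2 and 7. In all, Myh7 belonged to the leading pair in 8 Ctrl (4.65%) and 52 cKO (17.6%) hybrid nuclei. As given above, Myh7 was also higher in cKO in nuclei that were not hybrid. The second place was tied in 8 Ctrl (4.65%) and 46 cKO (15.6%) nuclei, which were put in no pair.

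The number of hybrid nuclei of a pair depends on how many nuclei of its 2 classes were captured. Per 100 hybrid and dominant nuclei of the pair, Myh2 with Myh1 stood at 7.06 in Ctrl and 8.21 in cKO. Myh1 with Myh4 stood at 3.43 and 3.90, and Myh2 with Myh4 at 1.33 and 2.33. Myh7 with Myh4 stood at 0.279 and 1.93. The large Myh4-dominant class, 2124 nuclei in Ctrl and 1632 in cKO, lowers every such share with Myh4. The order of the pairs is therefore not read from these shares.

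**Figure D3:**
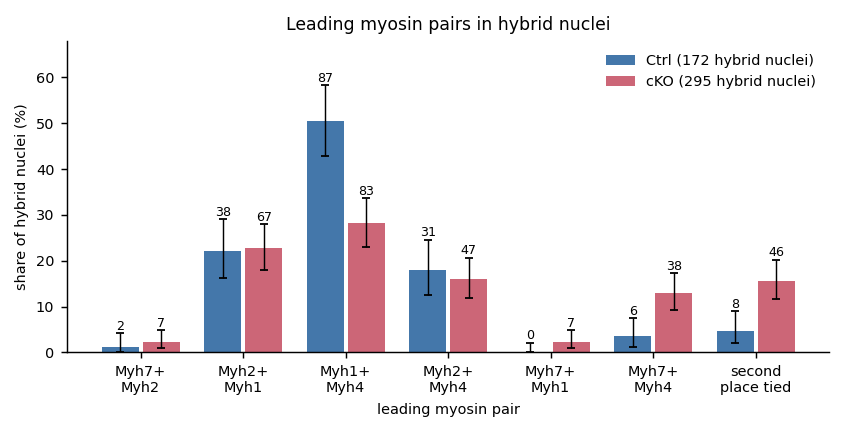
Share of hybrid nuclei (y axis, percent) led by each pair of myosins in Ctrl (blue, 172 nuclei) and cKO (red, 295 nuclei), with 95% Clopper-Pearson bars and the number of nuclei above each bar. Myh1 with Myh4 stands at 50.6% in Ctrl and 28.1% in cKO, and Myh7 with Myh4 stands at 3.49% and 12.9%.

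Depth and doublet score differed by pair. In cKO the pairs that skip a type had a median of 3160 UMIs and the neighbouring pairs 2282, and the highest 8% of doublet scores held 39.1% of the former and 16.6% of the latter. In Ctrl the medians were 2669 and 2748 UMIs, and the doublet shares 32.4% and 25.2%. For Myh7 with Myh4 in cKO the median was 3291.5 UMIs, 42.1% were among the highest doublet scores, and 42.1% had more UMIs than the medians of Myh7- and Myh4-dominant nuclei added together, against 11.4% of those dominant nuclei. In Ctrl 0 of its 6 nuclei were among the highest doublet scores. For Myh2 with Myh4, 38.7% and 40.4% were among the highest scores, and 25.8% and 34.0% lay above the added medians, against 12.1% and 12.6% of the dominant nuclei. For Myh1 with Myh4 the doublet shares were 25.3% and 21.7%, and 24.1% and 30.1% lay above the added medians. Myh2 with Myh1 had the lowest doublet share of these pairs in cKO, 10.4%, and 26.3% in Ctrl. The part of doublets in each pair was not tested.

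The other genes of a hybrid nucleus were compared with the 2 dominant classes of its pair. Genes at least 2-fold apart between those classes, the 4 myosins left out, were chosen in 1 library and read in the other, so that no nucleus was both used to choose and read. The measure was the share of a nucleus's UMIs on these genes that fell on the genes higher with the second-named myosin. Different gene sets were read in Ctrl and cKO, so levels are not compared between them.

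In the Ctrl library, nuclei led by Myh1 and Myh4 had a median of 63.5%, between 35.3% in Myh1-dominant and 86.7% in Myh4-dominant nuclei. Of these 87 hybrid nuclei, 81 (93.1%) lay between both class medians. All 31 nuclei led by Myh2 and Myh4 did, with a median of 68.3% between 35.8% and 89.6%. Nuclei led by Myh2 and Myh1 had a median of 57.9% between 40.0% and 81.5%, with 24 of 38 (63.2%) between. In cKO the hybrid medians were 41.7% for Myh1 with Myh4 (28.6% and 75.2% in the dominant classes, 64 of 83 nuclei between), 35.2% for Myh2 with Myh1 (24.2% and 58.7%, 39 of 67) and 48.5% for Myh2 with Myh4 (27.5% and 76.2%, 44 of 47). Among dominant nuclei, from 45.1% to 49.95% lay between the same medians, and close to that share follows from what a median is. Within hybrid nuclei of a pair, Spearman's rho between programme share and myosin share was from -0.013 to 0.218 across nuclei that share a library and its depth. The 60% limit leaves the myosin share little room to vary, so nothing is read from these values.

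Summed over genes, the hybrid nuclei held the non-myosin genes of both classes at intermediate levels. As sums in cKO, the 315 genes higher with Myh1 in Ctrl stood at 42377 CPM in Myh1-dominant, 34528 in Myh1 and Myh4 hybrid and 19873 in Myh4-dominant nuclei. The 482 genes higher with Myh4 stood at 19005, 26713 and 42079 CPM. Gene by gene the levels scattered more. Of the genes chosen in Ctrl with at least 50 UMIs in cKO, the cKO hybrid level lay between the 2 classes for 307 of 580 (52.9%) with Myh1 and Myh4, 96 of 174 (55.2%) with Myh2 and Myh1, and 700 of 1357 (51.6%) with Myh2 and Myh4. Without the nuclei with the highest 8% of doublet scores the medians of Myh1 with Myh4 were 64.5% (65 nuclei) in Ctrl and 41.7% (65 nuclei) in cKO. Among hybrid nuclei with no more UMIs than the median single-myosin nucleus they were 56.0% (30 nuclei) and 41.3% (24 nuclei). For Myh2 with Myh4 the cKO median was 40.9% (28 nuclei) without the highest scores and 42.6% (8 nuclei) at the lower depth, against 48.5% in all 47, and the Ctrl medians 62.9% (19 nuclei) and 65.4% (6 nuclei), against 68.3%. For Myh2 with Myh1 the medians without the highest scores were 52.3% in Ctrl and 32.2% in cKO, with 15 of 28 (53.6%) and 35 of 60 nuclei (58.3%) between the class medians. At the lower depth the medians were 49.1% and 28.8%. Of those nuclei 9 of 17 (52.9%) and 10 of 20 (50%) lay between, near the share of dominant nuclei. A value between the classes does not tell an intermediate programme in 1 nucleus from a mixture of 2 programmes in 1 droplet, and this was not tested.

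**Figure D4:**
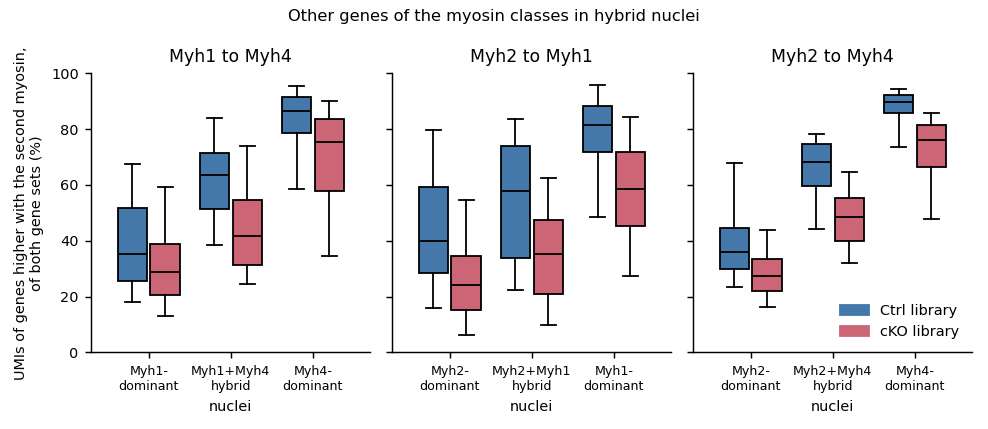
Share of UMIs, of all those on genes that tell the 2 dominant classes apart in the other library, that fall on genes higher with the second myosin (y axis, percent), for the pairs Myh1 and Myh4, Myh2 and Myh1, and Myh2 and Myh4. Boxes give median and quartiles and whiskers the 5th and 95th percentiles over nuclei in Ctrl (blue) and cKO (red): each hybrid median, such as 63.5% for Myh1 with Myh4 in Ctrl, lies between those of the dominant classes.

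Few single genes differed from the pool of single-myosin nuclei in both libraries alike. Of 7120 genes with at least 50 UMIs in each library, 7 (0.0983%) were at least 2-fold higher in both libraries and 22 (0.309%) at least 2-fold lower. At 1.5-fold these were 81 (1.14%) and 187 (2.63%). Within 1 library more genes passed: at 1.5-fold 592 higher and 892 lower in Ctrl and 340 and 727 in cKO, and at 2-fold 143 and 338 in Ctrl and 51 and 219 in cKO. Over all genes the log2 ratio had a median of -0.05 in both libraries. Single-myosin nuclei were mostly Myh4-dominant, so a second reference weighted the dominant classes by the myosin makeup of the hybrid nuclei. Against this mixture 5 genes (0.0702%) were 2-fold higher and 17 (0.239%) 2-fold lower in both libraries, and at 1.5-fold 43 (0.604%) and 108 (1.52%). Of the 81 genes 1.5-fold higher against single-myosin nuclei, 22 (27.2%) were also so against the mixture, and their median log2 ratio moved from 0.96 to 0.35 in Ctrl and from 0.75 to 0.55 in cKO. Of the 187 lower genes 77 (41.2%) were so against both.

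Esrrg, an orphan nuclear receptor that drives oxidative and slow fibre genes, was higher in hybrid than in single-myosin nuclei, at 1812 CPM in Ctrl and 2256 in cKO against 887 and 1466, log2 ratios of 1.03 (0.94 to 1.12) and 0.62 (0.55 to 0.69). Esrrb, its close relative, had log2 ratios of 1.05 (0.46 to 1.59) and 1.05 (0.64 to 1.44). Ppara, the nuclear receptor that controls fatty acid oxidation, had 1.50 (1.26 to 1.74) and 0.72 (0.52 to 0.92). Each of these was also higher in Myh2-dominant than in Myh4-dominant nuclei, Esrrg for example at 4141 against 451 CPM in Ctrl. Against the mixture the log2 ratio of Esrrg was -0.16 (-0.24 to -0.07) in Ctrl and 0.27 (0.21 to 0.33) in cKO, on opposite sides of 0. That of Esrrb was -0.40 (-0.94 to 0.10) and 0.54 (0.18 to 0.87), and that of Ppara 0.13 and 0.27.

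Other genes among the 10 higher that ranked first had varied roles. Lgi1, a secreted protein best known from neurons, had log2 ratios of 1.87 (0.86 to 2.78) in Ctrl and 1.84 (1.02 to 2.63) in cKO, from 13 and 22 UMIs in hybrid nuclei. Cacna1a, which encodes a calcium channel subunit, had 1.10 (0.46 to 1.69) and 1.24 (0.72 to 1.74). Cobll1 had 1.78 and 0.91, Egln3, an oxygen-sensing prolyl hydroxylase, 1.79 and 0.89, and Arpp21 1.44 and 0.90. Inpp4b, a lipid phosphatase, had 1.04 and 0.80. Against the mixture the direction turned in Ctrl for Cacna1a, at -0.23 in Ctrl and 0.80 in cKO, and for Inpp4b, at -0.23 and 0.35. Lgi1 had 0.29 and 1.20, Cobll1 0.62 and 0.45, Egln3 0.63 and 0.34, and Arpp21 0.55 and 0.37.

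The genes lower in hybrid nuclei rested on few molecules. Tom1l1, an adaptor of membrane trafficking, had 3 UMIs in the hybrid nuclei of each library, with log2 ratios of -2.02 (-4.32 to -0.45) and -2.14 (-4.44 to -0.54). The other 9 that the ranking placed first, with Triobp, Cmbl, Zfp942, Zbtb49, Vasp, Opcml and Adamts3 among them, had from 1 to 7 UMIs in the hybrid nuclei of a library. With 200 UMIs required, 0 genes were 2-fold lower in both libraries.

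Against the mixture, the genes higher in both libraries included Cacna1c, the pore of a voltage-gated calcium channel, with log2 ratios of 1.07 (0.41 to 1.65) and 1.22 (0.31 to 2.00), and Nova1, a splicing regulator, with 1.09 (0.21 to 1.83) and 1.05 (0.36 to 1.66). Kirrel3, a cell adhesion protein, had 1.21 and 1.08, and Hmcn1, an extracellular matrix protein, 1.02 and 1.06. Col1a2, a collagen gene of fibroblasts that the rule did not use, had 1.40 (0.59 to 2.09) and 1.06 (0.11 to 1.87), from 16 and 12 UMIs. At least 1 UMI of the 8 non-muscle genes was found in 28 Ctrl (16.3%) and 27 cKO (9.15%) hybrid nuclei. In single-myosin nuclei it was found in 285 (10.8%) and 140 (5.22%). The part of these UMIs in the Col1a2 value was not tested. Among the lower genes Kcnq3, a potassium channel gene, had -1.71 and -1.49, from 4 and 6 UMIs, and Tom1l1 was lower here too, at -1.79 and -2.24. Slc24a2 had 0 UMIs in Ctrl and 3 in cKO hybrid nuclei, Glis3 had 7 and 4, and Plekhg3 1 and 3.

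Slow fibre genes were higher in Ctrl hybrid nuclei than in single-myosin nuclei. All 10 measured genes of a 13-gene list lay past 1.5-fold in Ctrl with a median log2 ratio of 1.34, against 1 of 10 with a median of 0.24 in cKO, and 1 was past it in both. Over all 7120 genes 592 lay as far higher in Ctrl and 340 in cKO. That gene was Ankrd2, a stretch-responsive ankyrin repeat protein, at 1.59 and 0.72. Tnnt1, slow troponin T, had 2.00 (1.34 to 2.61) in Ctrl and 0.12 (-0.13 to 0.36) in cKO, and Myoz2, a Z-disc protein of slow fibres, 1.60 and 0.45. Summed over the list, hybrid nuclei had 2765 and 3629 CPM against 1277 and 2875 in single-myosin nuclei. Against the mixture the median log2 ratios were -0.05 and 0.06 and 0 genes were past 1.5-fold in both. The single-myosin pool held 20 Myh7-dominant nuclei in Ctrl and 301 in cKO.

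Over 14 fast fibre genes the median log2 ratios were -0.40 and -0.59, with 3 genes past 1.5-fold lower in Ctrl and 7 in cKO, beside 892 and 727 of all 7120 genes. Myl1, the fast essential light chain, had 0.05 and 0.03. Actn3, the fast Z-disc actinin, at -0.59 and -0.89, and Ampd1, muscle AMP deaminase, at -0.61 and -0.66, were past 1.5-fold in both libraries, as were 187 (2.63%) of all genes. Against the mixture the medians were 0.05 and -0.22 and 0 genes were past it in both. Summed CPM of this list was 10361 and 8402 in hybrid nuclei against 13223 and 11362. Over 18 genes of glycolysis and glycogen the medians were -0.31 and -0.24, and 0 genes were past 1.5-fold in both. Over 18 genes of fatty acid and oxidative metabolism they were 0.65 and 0.33, with Ppara past it in both, 11 past it in Ctrl and 2 in cKO, beside the 592 and 340 of 7120 genes above. Against the mixture its medians were 0.05 and 0.04 and 0 genes were past 1.5-fold in either library. Of 24 fibre type transcription factors, with medians of 0.09 and -0.01, Esrrg, Esrrb and Vgll2 were past 1.5-fold higher in both, as were 81 (1.14%) of all genes. Against the mixture 0 of the 24 were past it in either library. Vgll2, a cofactor of TEAD factors in slow fibres, had 0.97 and 0.93. Sox6, a repressor of slow genes, had -0.26 and -0.49.

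Non-coding genes of the fast myosin locus were read as a further check on the hybrid nuclei. Myhas (listed under the older symbol Gm12300) is antisense, on the minus strand at chr11:67211256-67237573, from within Myh1 to just before Myh4. It stood at 208 CPM in Ctrl and 78.3 in cKO hybrid nuclei, against 354 and 173 in single-myosin nuclei and 418 and 262 in Myh4-dominant nuclei. Against the mixture its log2 ratio was 0.09 (-0.18 to 0.34) in Ctrl and -0.57 (-0.92 to -0.23) in cKO. A lincRNA between Myh3 and Myh2, 2310065F04Rik (chr11:67112461-67120080, minus strand), stood at 136 and 41.9 CPM in hybrid and 126 and 72.8 in single-myosin nuclei. 9430073C21Rik, antisense over the 3′ end of Myh2, stood at 6.82 and 8.82 CPM. Whether reads were counted by strand is not given in the sources used here, so reads of antisense genes and of the myosins they overlap may not be separable. Of the developmental and extraocular myosins of the locus, Myh3 had 0 and 1 UMIs, Myh8 3 and 1, and Myh13 0 in both.

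Between the libraries, hybrid nuclei were compared over 3386 genes with at least 50 UMIs over both, of which 113 (3.34%) were at least 2-fold higher and 86 (2.54%) at least 2-fold lower in cKO. With Malat1 and mitochondrial genes left out of the total these were 136 and 66, since the median log2 ratio of all genes moved from -0.07 to 0.04. A gene could reach 50 UMIs through the library where it is high, so the counts and medians over list genes below describe only those that passed and support no statement on a list. The leading pairs also differed between the libraries. In hybrid nuclei led by Myh1 and Myh4 alone, 37 genes were higher and 56 lower among 1533 with enough UMIs, of which 24 and 25 were also counted over all hybrid nuclei.

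The 15 genes higher in cKO hybrid nuclei that ranked first also had log2 ratios above 0 in single-myosin nuclei. Nckap5 stood at 32.4 CPM in Ctrl and 886 in cKO, a log2 ratio of 4.77 (4.12 to 5.51), against 4.87 in single-myosin nuclei. Gpr179, an orphan receptor, had 0 UMIs in Ctrl and 119 in cKO hybrid nuclei, 25.7-fold higher with Ctrl set to 3 UMIs and at least 20.5-fold by the counting interval. Ablim1, an actin-binding protein, had 3.19 (2.79 to 3.60), Car3, the carbonic anhydrase of slow muscle, 2.80 (2.37 to 3.26) and Cryab, a small heat shock protein of the Z-disc, 2.09. Atf3, a stress-induced transcription factor, had 3 UMIs in Ctrl and 72 in cKO, a log2 ratio of 3.96 (2.35 to 6.27), against 2.24 in single-myosin nuclei. Nr4a3, an activity-induced nuclear receptor, had 3.02 and Zc2hc1a 3.43. Frem2 had 3.68, Pnrc1 3.59, Cpne2 3.34, Rap1gap2 3.28 and AI838599 3.03.

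Some slow fibre genes were among the higher ones, while Myh7 took 1.96% of hybrid myosin UMIs in Ctrl and 11.1% in cKO. Of the 13 listed 11 passed the filter, of which 6 were at least 2-fold higher and 1 lower, with a median log2 ratio of 1.85, and of 2.75 in single-myosin nuclei. Atp2a2, the slow calcium pump, had 2.29 (1.95 to 2.64) against 3.40 in single-myosin nuclei, and Tpm3, slow tropomyosin, 1.96 (1.51 to 2.45) against 2.75. Tnnc1 had 2.59, from 7 and 65 UMIs, Myh7b 2.12, from 7 and 47, Myl2 2.08 and Tnnt1 1.85. Ankrd2 went the other way, at -1.23. Of 14 fast genes, Myl1 was past 2-fold at 1.07 and Mylk4, a myosin kinase, at -1.29, with a median of -0.30.

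The 15 genes lower in cKO hybrid nuclei that ranked first had log2 ratios below 0 in single-myosin nuclei too. Fkbp5, a chaperone of the glucocorticoid receptor, stood at 390 CPM in Ctrl and 26.5 in cKO, a log2 ratio of -3.88 (-4.55 to -3.27), against -4.53 in single-myosin nuclei. Pdk4, which limits glucose oxidation, stood at 658 and 117 CPM, a log2 ratio of -2.49 (-2.82 to -2.18). Arrdc2 had -3.14, Zbtb16, a zinc finger repressor, -1.36 from 3026 to 1177 CPM, and Ucp3, a mitochondrial carrier of muscle, -1.97. Tbc1d1, a regulator of glucose uptake, had -2.71 (-2.99 to -2.44) against -2.05 in single-myosin nuclei. Nos1, neuronal nitric oxide synthase of the sarcolemma, had -1.53 and Mylk4 -1.29, from 1840 to 751 CPM. Pnpla3, a lipase, had -2.33, Tmem132b -2.29, Pde10a, a phosphodiesterase, -1.85, Actr3b -1.81, Prune2 -1.62 and Slc38a4, an amino acid transporter, -1.59.

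**Figure D5:**
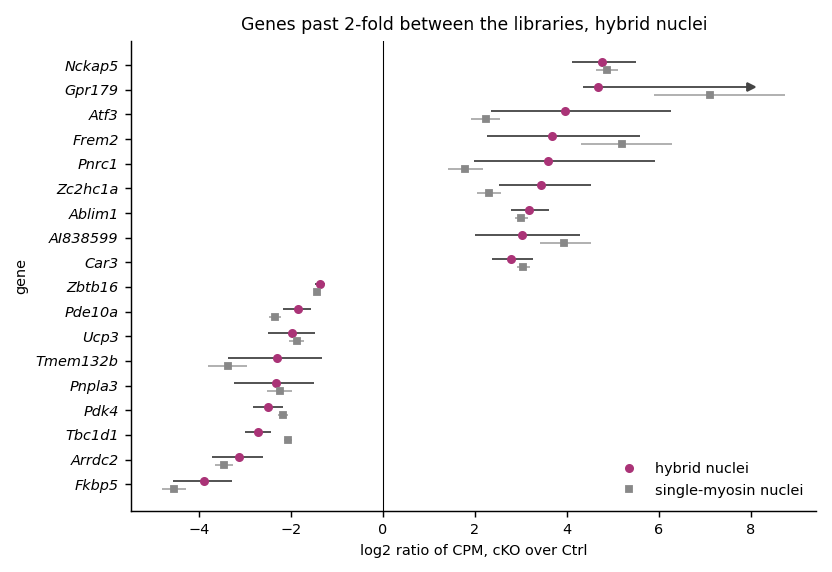
Log2 ratio of CPM in cKO over Ctrl (x axis) for the 9 genes higher and 9 lower past 2-fold that ranked first, in hybrid nuclei (purple circles) and single-myosin nuclei (grey squares), with 95% counting intervals from 1 library per group. Gpr179 had 0 UMIs in Ctrl hybrid nuclei, so its point sets Ctrl to 3 UMIs and its bar is open upwards (arrow), and Nckap5 stands at 4.77 and Fkbp5 at -3.88.

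The other lists are read beside the same shares over all genes, 3.34% higher and 2.54% lower. Of 12 genes of stress and DNA damage 5 passed the filter, and 4 of these were at least 2-fold higher in cKO hybrid nuclei, with a median log2 ratio of 1.24 against 0.47 in single-myosin nuclei. They were Atf3, Mdm2, the p53 ubiquitin ligase, at 1.26, Trp63, a p53 relative, at 1.24, and Trp53inp1 at 1.06, while Sesn1 had 0.36. Of 14 genes of denervation and acetylcholine receptors 4 passed, of which Ncam1, a cell adhesion molecule re-expressed in denervated muscle, was higher at 1.76 and Runx1 at 1.23. Of 11 genes of atrophy and remodelling 7 passed, of which Ampd3 at 1.09 and Trp63 were higher and Fkbp5 and Fbxo32, the ubiquitin ligase atrogin-1, at -1.14, were lower. Of 19 genes of fatty acid and oxidative metabolism 17 passed, of which Idh2 at 1.19 and Slc27a1 at 1.07 were higher and Pdk4 and Ucp3 lower, with a median of -0.27 against 0.39 in single-myosin nuclei. Of 18 genes of glycolysis and glycogen 14 passed, of which 0 were past 2-fold, with a median of -0.50. Of 28 fibre type transcription factors 22 passed. Vgll2 at 1.09 and Hdac9, a repressor of MEF2 factors, at 1.13 were at least 2-fold higher, and 1 factor was at least 2-fold lower. Col22a1, a collagen of the myotendinous junction and the 1 gene of its list measured, was lower at -1.99.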

How the data were processed

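Single-nucleus RNA-seq was analysed from 1 Ctrl and 1 cKO library of gastrocnemius-plantaris muscle. The authors aligned and counted reads with Cell Ranger 3.1.0 on mm10 with default settings and deposited filtered matrices of raw UMI counts (27998 genes); which annotation was used and how intronic and antisense reads were handled are not given in the sources used here. The labels and the study's methods name different kit versions, so the chemistry is uncertain.

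UMI counts were summed per class and library and scaled to CPM of all UMIs (scanpy 1.11.5 and scipy 1.17.1 under Python 3.11.15). The rule for hybrid nuclei was applied as stated, with no doublet removal. Genes needed at least 50 UMIs over hybrid and single-myosin nuclei in each library, or over the hybrid nuclei of both libraries. Ratios carry conditional binomial intervals, except those against the mixture. Their intervals are exact Poisson for the hybrid count, with the mixture taken as fixed. A level of 0 was set to 3 counts. With 1 library per group no test was made. The ratio step was checked on simulated counts. The members and the gene lists were chosen with earlier results of these data known.

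Genes were named by rule: the myosins, genes of the lists, the 10 higher and 10 lower against single-myosin nuclei and the 5 and 5 against the mixture past 2-fold in both libraries (1.5-fold where fewer passed), and the 15 higher and 15 lower in cKO hybrid nuclei, ranked by the interval bound nearest to no difference. Genes named Gm or Rik were named only in the fast myosin locus. Alternatives changed the dominance limit, the myosin minimum, depth, doublet scores, scaling and the UMI minimum. Some genes that the rule names are not reported here.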

Additional observations from a re-analysis of the deposited data

Results flagged for a closer look

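Some genes stood on opposite sides of no difference in the 2 libraries or in the 2 kinds of nuclei, with both counting intervals clear of 0. Only genes named by rule, list genes and genes of the fast myosin locus were searched. Intervals against the mixture leave out its own counting error. None of these differences was tested, since each group had 1 library.

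Against the mixture of dominant classes, Rap1gap2 had a log2 ratio of -1.51 (-3.38 to -0.15) in Ctrl and 0.96 (0.57 to 1.33) in cKO hybrid nuclei. These rest on 4 and 60 UMIs. Rap1gap2 was named for being higher in cKO than in Ctrl hybrid nuclei, a choice that imposes this direction in part. Ncam1 had -0.98 (-1.55 to -0.47) in Ctrl and 0.48 (0.25 to 0.71) in cKO. Pfkfb3, a regulator of glycolysis, had 0.38 (0.10 to 0.66) in Ctrl and -0.59 (-0.82 to -0.37) in cKO. The lincRNA 2310065F04Rik of the fast myosin locus had 0.39 (0.05 to 0.70) in Ctrl and -0.64 (-1.13 to -0.18) in cKO.

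Between cKO and Ctrl, Lpl, lipoprotein lipase, had a log2 ratio of -0.62 (-0.98 to -0.26) in hybrid and 0.92 (0.75 to 1.09) in single-myosin nuclei. Runx1 had 1.23 (0.24 to 2.35) in hybrid and -0.44 (-0.70 to -0.18) in single-myosin nuclei. Trp53inp1, a p53 target, had 1.06 (0.28 to 1.91) in hybrid and -0.45 (-0.67 to -0.23) in single-myosin nuclei. Over single-myosin nuclei, Trp53inp1 in hybrid nuclei had -1.04 (-1.81 to -0.37) in Ctrl and 0.46 (0.03 to 0.88) in cKO.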

How the results depend on the processing

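The hybrid share moved with the limits and with depth. In Ctrl and cKO it was 2.31% and 4.77% at a dominance limit of 50%, 14.1% and 19.9% at 70%, 9.85% and 11.7% with at least 10 myosin UMIs, 4.55% and 7.04% thinned to 1000 UMIs, and 4.86% and 8.33% without the highest 8% of doublet scores. It was 5.24% in Ctrl with 10 myosin UMIs drawn and 4.75% in cKO thinned to 500. The difference between libraries was 5.82 points at 70% and 1.82 with at least 10 myosin UMIs, and -1.09 thinned to 500 UMIs, a reversal whose interval (-3.50 to 1.12) spans 0 and which the shares of all thinned nuclei, 1.09% in Ctrl and 1.34% in cKO, did not show. Thinned to 1000 UMIs, Myh2 with Myh1 led 15.2% of Ctrl hybrid nuclei and Myh1 with Myh4 41.8% in Ctrl and 21.7% in cKO. Myh7 with Myh1 led 0.840% in cKO with at least 10 myosin UMIs.

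Genes 2-fold higher and lower against single-myosin nuclei numbered 14 and 47 with the mean of each nucleus's CPM, and 1 and 0 with at least 200 UMIs. With at least 10 myosin UMIs there were 4 higher and 19 lower, of which 0 were among the 7 and 1 among the 22. Without the highest doublet scores there were 8 and 53, of which 2 and 9 were among them, and in the Myh1 and Myh4 pair, an alternative added after seeing the data, 8 and 96, of which 0 and 6 were. Without those scores 3 were higher and 41 lower against the mixture. Between cKO and Ctrl hybrid nuclei there were 37 higher and 56 lower in the Myh1 and Myh4 pair, 75 and 72 without the highest doublet scores (2617 genes tested), of which 62 and 49 were among the 113 and 86, and 22 and 20 with at least 200 UMIs, since fewer genes were then tested. The share of genes between the Myh2 and Myh4 classes was 56.2% chosen in cKO and read in Ctrl. In 2 others so added, the programme share of Myh2 with Myh4 in cKO was 40.9% without the highest doublet scores, and that of Myh1 with Myh4 in Ctrl was 56.0% in nuclei no deeper than the single-myosin median. Beyond what is stated the causes were not tested. Of the other values 94 stayed within their interval or within 1.5 times. Of the ratios of named genes 1037 did so, 38 moved and 0 reversed.

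No paired analysis was possible because each group had 1 library. Depth limits the shares, since a nucleus with few myosin UMIs can show few combinations. The low counts of the genes lower in hybrid nuclei limit their ratios.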
